A study of Homo sapiens with 31 samples.

Results

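A set of 7 transcripts well known as targets of the let-7 microRNAs was followed by gene symbol in every RNA-seq library of the study: HMGA2, LIN28B, CDK6, CDC25A, CCND2, ARID3B and NRAS. They are 7 of 57992 genes in the steady-state tables and 7 of 43682 genes in the actinomycin D tables, and all 7 passed the filter on low counts in both sets (17240 and 17715 genes tested). All libraries carry the cell line label PANC-1, a line grown from a human pancreatic ductal carcinoma. The steady-state set held 3 libraries of KHSRP knockout cells (KO) and 3 titled NC, whose genotype label is WT. The actinomycin D set held libraries labelled KHSRP knockout (KO) and NC at 0, 2, 4, 6 and 8 h under actinomycin D, a drug that blocks transcription, with 2 libraries for each label and time. The labels do not name the clone, the guide or whether replicates came from separate cultures, so each p-value reflects library-to-library spread that could be purely technical. A further 5 crosslinking samples of the series were not analysed here.

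The let-7 family is a group of microRNAs that pair through their seed, bases 2 to 8, with matching sites in the 3′ untranslated regions of messenger RNAs and lower the level and translation of those messages. LIN28 proteins block the maturation of let-7 precursors, so LIN28B is both a target and an inhibitor of the family. KHSRP is known to bind the terminal loop of let-7 precursors and to promote their processing by DROSHA and DICER1, and, apart from that, to speed the turnover of messages with AU-rich elements.

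The 12 human let-7 and miR-98 hairpin genes give 9 different mature 5p sequences of 22 bases, and all 9 share the single seed GAGGUAG, whose match in a target is CUACCUC. The 5 sequences below show this constancy beside the positions that do vary. They were copied from the RefSeq table (GRCh38.p14), run 5′ to 3′, and have the seed in capitals.
hsa-let-7a-5p: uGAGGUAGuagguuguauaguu
hsa-let-7d-5p: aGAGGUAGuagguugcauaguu
hsa-let-7e-5p: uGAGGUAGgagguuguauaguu
hsa-let-7i-5p: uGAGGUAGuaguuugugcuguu
hsa-miR-98-5p: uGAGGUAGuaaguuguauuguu
With positions counted from 1 at the 5′ end and let-7a as the first base of each token, let-7d differs by U1A and U16C, let-7e by U9G, let-7i by G12U, A17G, U18C and A19U, and miR-98 by G11A and A19U. The let-7a copy of MIRLET7A1 lies at chr9:94175962-94175983 on the plus strand. Mature microRNAs were not measured in these mRNA libraries. Of the 12 hairpin genes, 10 had a row in the steady-state tables and all 10 were at 0 counts, while in the actinomycin D set 6 of 12 were at 0 in every library and the highest count in any library was 30, for MIRLET7D.

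Depth ran between 33706181 and 43278138 counts at steady state, and between 19177934 and 25768060 counts in the actinomycin D libraries. KHSRP stood at 10.6, 9.89 and 9.49 CPM (counts relative to the TMM-scaled library size) in the steady-state KO libraries, against 64.4, 65.7 and 64.9 CPM in NC. In the actinomycin D set it ranged over 134 to 157 CPM in the 10 libraries labelled KO and over 375 to 460 CPM in the 10 labelled NC. The labels of that set differed in more than KHSRP. CDKN2A, a tumour suppressor gene whose deletion is a known feature of PANC-1, was at 0 counts in all 10 libraries labelled KO and at 125 to 247 CPM in the 10 labelled NC, whereas the steady-state libraries held 6 counts in each KO library and 0 in each NC library. The summed level of 4 immune markers was 113 to 249 CPM in the libraries labelled KO, with PTPRC at 0, and 10.04 to 14.4 CPM in those labelled NC, with CD3E at 0; at steady state it was 93.0 to 118 CPM in KO and 64.3 to 67.4 CPM in NC, with CD3E at 0 in NC. Nearly all of that sum was CD68, at 200.5 CPM under the KO label and 12.4 CPM under the NC label at 0 h, where CD14 was at 3.72 and 0.643 CPM and CD3E and PTPRC were at 0. The 6 fibroblast markers summed to 32.1 to 62.1 CPM under the KO label and 28.9 to 37.1 CPM under NC, with members that moved in opposite directions at 0 h (log2 changes of -7.15 for PDGFRB, 2.19 for COL1A1 and 3.59 for COL3A1), and the endothelial, acinar and endocrine markers to at most 4.58 CPM in any library. The part of these differences in the members' values was not tested. The 6 ductal epithelial markers summed to 3814 to 6460 CPM under the KO label and 2924 to 4563 CPM under the NC label, yet KRT19 and KRT7 moved in opposite directions between the labels at 0 h (log2 changes of 9.86 and -6.22). Replicate 1 of KO stood apart at steady state: over all genes its chi-square per degree of freedom was 42.8 and 26.6 against the other KO libraries, 11.3 between those, and 3.81 to 12.8 between NC libraries. The libraries labelled KO at 6 h and NC at 4 h stood apart, with 43.9% and 44.0% (KO) and 43.4% and 43.1% (NC) of the deposited RPM total falling in genes, against 44.9% to 46.5% in the other 16 libraries. A difference between the labels in this set is therefore a difference between the libraries labelled KO and NC, in which KHSRP and these other differences cannot be told apart.

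At steady state the let-7 targets did not move one way. ARID3B and CDC25A were higher in KO, HMGA2, LIN28B, CDK6 and NRAS were lower, and CCND2 did not pass the test. That is 2 of 7 higher, where 24.4% of all tested genes were called higher, and 4 of 7 lower, where 26.3% were called lower (edgeR quasi-likelihood test, adjusted p under 0.05). The median log2 change was -0.44 over the 7 and 0.02 over all 17240 genes tested. Without KO replicate 1, which stood apart, the members called were again 2 higher and 4 lower, with log2 changes of -1.24 for HMGA2, -1.45 for LIN28B, -1.79 for CDK6, 0.58 for CDC25A, 1.09 for ARID3B and -0.64 for NRAS. In bulk libraries fewer expressing cells and less RNA per cell cannot be told apart.

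**Figure D1:**
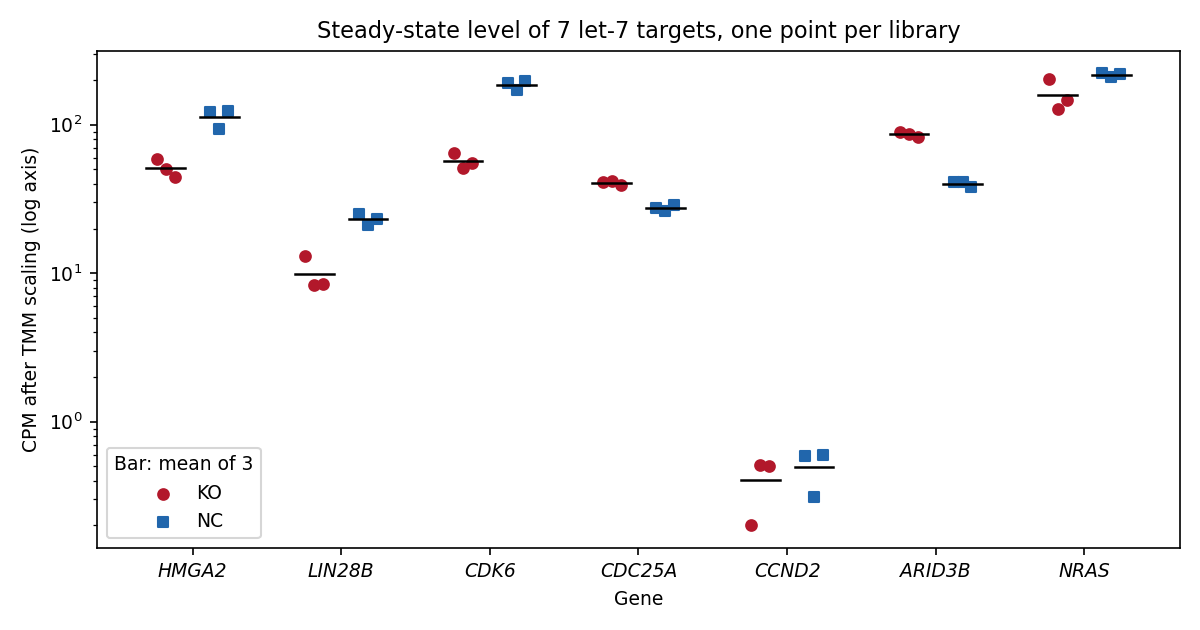
Steady-state level of the 7 targets in CPM after TMM scaling (log axis), with 1 point per library, KO left of NC, and a bar at the mean of 3 libraries. ARID3B and CDC25A lie higher in every KO library than in any NC library, HMGA2, LIN28B, CDK6 and NRAS lie lower in every KO library, and CCND2 overlaps.

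HMGA2, an architectural chromatin protein of embryonic cells that returns in many tumours, lies on chromosome 12 (hg19, 66218240 to 66360071, plus strand; ENSG00000149948.13). It stood at 59.1, 50.1 and 44.5 CPM in KO, against 122, 93.9 and 124 CPM in NC. The groups did not overlap, and the log2 change was -1.14 (SE 0.13, adjusted p = 0.00014, edgeR). LIN28B, the RNA-binding inhibitor of let-7 maturation, lies on chromosome 6 (hg19, 105404982 to 105531207, plus strand). It stood at 13.1, 8.28 and 8.46 CPM in KO, against 25.2, 21.0 and 23.3 CPM in NC. Replicate 1 of KO was the highest of the 3 for both genes and still lay below every NC library. The log2 change of LIN28B was -1.23 (SE 0.17, adjusted p = 0.000317, edgeR).

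The cell-cycle members split. CDK6, a cyclin-dependent kinase of the G1 phase, lies on chromosome 7 (hg19, 92234235 to 92465887, minus strand). It stood at 65.0, 51.2 and 55.6 CPM in KO, against 191, 172 and 196 CPM in NC. With TMM scaling this was the largest change among the 7, at a log2 of -1.70 (SE 0.10, adjusted p = 1.79e-05, edgeR), and 2.52% of all tested genes changed by more in either direction. CDC25A, a phosphatase that activates cyclin-dependent kinases, lies on chromosome 3 (hg19, 48198636 to 48229907, minus strand). It stood at 41.5, 41.7 and 39.4 CPM in KO, against 27.4, 26.3 and 28.7 CPM in NC, a log2 change of 0.57 (SE 0.08, adjusted p = 0.000306, edgeR). CCND2, a D-type cyclin partner of CDK4 and CDK6 on chromosome 12 (hg19, 4382928 to 4414519, plus strand), was close to undetected. It had 7, 21 and 22 counts in the KO libraries, against 20, 13 and 23 counts in NC. A difference was not detectable at this depth (log2 change -0.24, SE 0.41, adjusted p = 0.647, edgeR).

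ARID3B, a DNA-binding protein of the ARID family on chromosome 15 (hg19, 74833561 to 74890472, plus strand), was the member that rose most. It stood at 89.9, 87.1 and 82.3 CPM in KO, against 41.2, 41.4 and 37.9 CPM in NC, a log2 change of 1.10 (SE 0.08, adjusted p = 2.33e-05, edgeR). NRAS, a RAS-family GTPase on chromosome 1 (hg19, 115247090 to 115259392, minus strand), had the smallest change that passed. It stood at 204, 127 and 148 CPM in KO, against 222, 208 and 218 CPM in NC. Replicate 1 of KO lay just under the lowest NC library, and the log2 change was -0.44 (SE 0.15, adjusted p = 0.0298, edgeR). Without KO replicate 3, or without NC replicate 1, 2 or 3, the adjusted p of NRAS was 0.11, 0.0882, 0.0676 or 0.0846, so its call rests on which libraries are kept.

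Every KO library lay above every NC library for 2 of the 7 (30.4% of all tested genes did so) and below for 4 of the 7 (29.6% did so). On the authors' deposited per-length scale, TPM, the order of levels in KO was NRAS (11.02 to 20.9 TPM), ARID3B (8.16 to 10.2), CDC25A (6.76 to 8.12), HMGA2 (4.90 to 6.96), CDK6 (1.94 to 3.03), LIN28B (0.57 to 1.08) and CCND2 (0.03 to 0.07). In NC the order was NRAS (16.96 to 17.5 TPM), HMGA2 (8.29 to 10.96), CDK6 (5.73 to 6.57), CDC25A (3.68 to 4.48), ARID3B (3.42 to 4.01), LIN28B (1.37 to 1.55) and CCND2 (0.02 to 0.04). Among neighbours in these orders, the ranges of CDC25A and HMGA2 overlapped in KO, and those of CDC25A and ARID3B overlapped in NC. In TPM replicate 1 of KO, at 20.9, lay above every NC library for NRAS, so the NRAS groups overlapped on that scale.

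Transcript length moved with the steady-state change. Among all tested genes, the share called lower was 12.2%, 18.2%, 27.8% and 46.8% in 4 equal groups of deposited transcript length, shortest to longest, and the median log2 change was 0.14, 0.11, 0.01 and -0.31. Most members are long: HMGA2, LIN28B, CDK6, CCND2, ARID3B and NRAS lay at the 83.5, 93.6, 99.4, 93.0, 83.4 and 87.7 percentile of length, in the longest group (over 3311 bases), and CDC25A lay at the 59.1 percentile. With library offsets adjusted for this trend, CDK6 was at a log2 change of -1.02 (adjusted p = 5.39e-06, edgeR), HMGA2 at -0.90 and LIN28B at -0.83 (adjusted p = 8.68e-05 and 0.000375), ARID3B at 1.35, then the largest of the 7, and NRAS at -0.15 with an adjusted p of 0.311. So 3 members rather than 4 were called lower. The part of length in the members' changes was not otherwise tested.

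**Figure D2:**
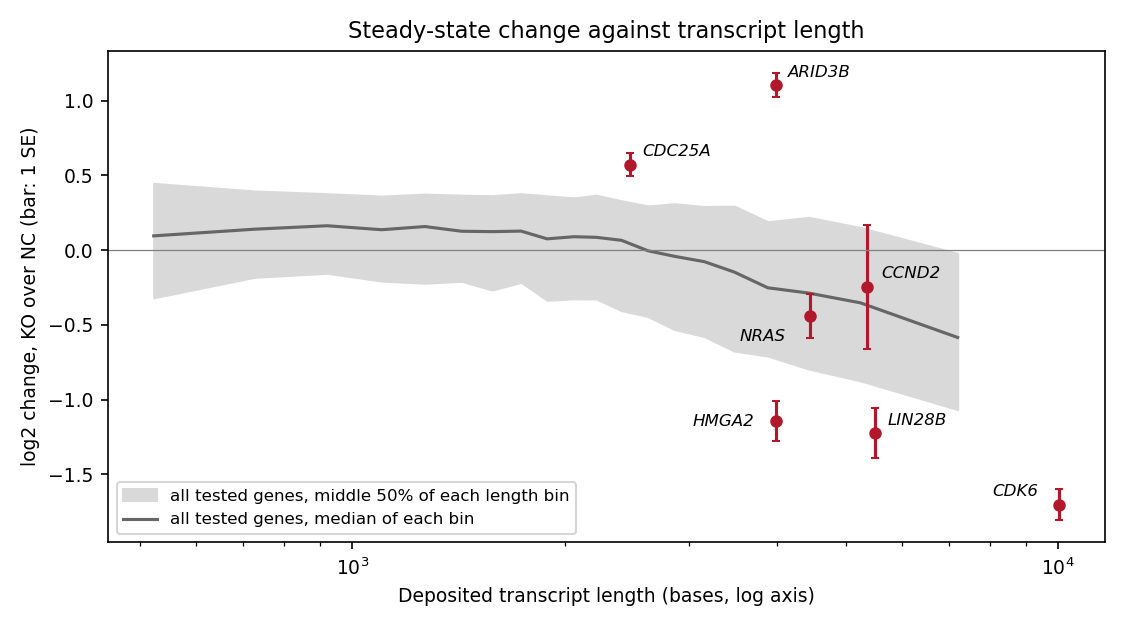
Steady-state log2 change, KO over NC, against deposited transcript length in bases (log axis). Points are the 7 targets with 1 SE; the line is the median and the band the middle 50% of all tested genes in 20 bins of length. HMGA2, LIN28B and CDK6 lie below the band and ARID3B and CDC25A above it, while NRAS and CCND2 lie within it; CDK6, at 10039 bases, lies to the right of the median of the last bin.

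At 0 h of the actinomycin D set, the start of the time series, 4 of 7 members were higher under the KO label (35.5% of all tested genes were) and 1 of 7 was lower (31.6% of all were). HMGA2, LIN28B, ARID3B and CCND2 were the 4 and CDK6 the 1, while CDC25A and NRAS did not pass. The median log2 change was 1.96 over the 7 and 0.06 over all 17715 genes tested. ARID3B and CDK6 had the same direction as at steady state. HMGA2 and LIN28B had the opposite one.

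HMGA2 stood at 266 and 287 CPM in the 0 h libraries labelled KO, against 11.9 and 9.86 CPM in those labelled NC, a log2 change of 4.66 (SE 0.08, adjusted p = 4.42e-38, edgeR). The steady-state KO libraries, at 44.5 to 59.1 CPM, lay far below the KO label of this set, and the steady-state NC libraries, at 93.9 to 124 CPM, far above its NC label. The sets were processed separately, so this is a side-by-side reading of levels. LIN28B had 105 and 112 counts in the 0 h libraries labelled KO, against 0 and 0 counts in those labelled NC. It was at 0 counts in all 10 libraries labelled NC and at 93 to 429 counts in the 10 labelled KO, while the steady-state NC libraries held 863 to 904. Against a floor of 3 counts per library, LIN28B was at least 40.0-fold higher under the KO label at 0 h. The floor covers counting error only.

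CDK6 stood at 94.1 and 93.3 CPM in the 0 h libraries labelled KO, against 371 and 351 CPM in those labelled NC, a log2 change of -1.95 (SE 0.05, adjusted p = 2.69e-31, edgeR). ARID3B stood at 24.7 and 25.7 CPM, against 5.74 and 7.23 CPM, a log2 change of 1.96 (SE 0.17, adjusted p = 9.12e-14, edgeR). CDC25A stood at 9.35 and 10.7 CPM under the KO label, against 6.86 and 9.11 CPM under NC, and did not pass (log2 change 0.33, SE 0.18, adjusted p = 0.104, edgeR). Leaving out 1 library at a time gave 0.135 to 0.543, and without NC replicate 2 at 0 h it was called higher (adjusted p = 0.0303). NRAS stood at 162 and 153 CPM, against 154 and 167 CPM, a log2 change of -0.03 (SE 0.06, adjusted p = 0.709, edgeR). CCND2 had 12 and 10 counts in the libraries labelled KO, against 2 and 0 in those labelled NC (log2 change 3.45, SE 1.499, adjusted p = 0.0405, edgeR), and this call was lost with DESeq2 (adjusted p = 0.0533), with no filter on low counts (0.0579), on the molecule scale (0.0588) and on leaving out any of 11 of the 20 libraries.

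Scaling moved the whole of the 0 h comparison. Scaling to the ribosomal protein genes raised the median of all genes by 0.44 on the log2 scale, and the authors' deposited log2 molecule values raised it by 0.83. NRAS was then at 0.42 and 0.88 and CDC25A at 0.77 and 1.18, all called higher. Relative to the median of all genes NRAS was at -0.08 and -0.002 and CDC25A at 0.27 and 0.30. The directions of HMGA2 (5.11 and 5.93), ARID3B (2.40 and 2.96) and CDK6 (-1.50 and -1.23) held under both.

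**Figure D3:**
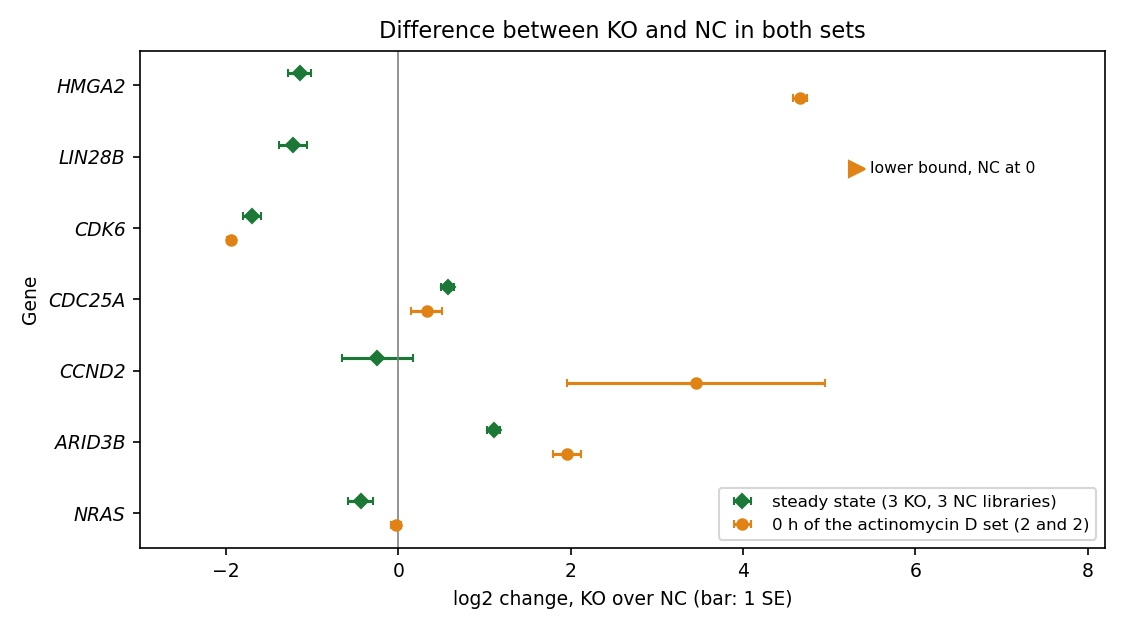
Log2 change, KO over NC, of each target at steady state (diamonds) and at 0 h of the actinomycin D set (circles), with bars of 1 SE; the triangle for LIN28B is a lower bound against a floor of 3 counts. HMGA2 lies at -1.14 and 4.66, CDK6 at -1.70 and -1.95, and ARID3B at 1.10 and 1.96.

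The difference between the labels persisted over the labelled times for 4 members. Over all 5 times, every library labelled KO lay above every library labelled NC for HMGA2, LIN28B and ARID3B, 3 of 7 members, where 19.4% of all tested genes did so, and below for CDK6, 1 of 7, where 18.7% did so. HMGA2 ranged over 194 to 336 CPM (median 277) in the 10 libraries labelled KO and 8.85 to 19.3 CPM (median 11.7) in the 10 labelled NC. CDK6 ranged over 71.2 to 160 CPM (median 93.7) under KO and 324 to 694 CPM (median 431) under NC. ARID3B ranged over 24.7 to 40.6 CPM (median 26.4) under KO and 4.18 to 7.60 CPM (median 5.87) under NC. NRAS spanned 126 to 162 CPM under KO and 139 to 167 CPM under NC, ranges that overlapped over all times. At single times its libraries labelled KO lay above those labelled NC at 2 h and below them at 4 and 6 h. Its highest mean over the labelled times was 1.23 times its lowest under KO and 1.13 times under NC.

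CDC25A changed direction between the labels with labelled time. It was lower under KO at 2 and 4 h (log2 changes of -1.86 and -1.58, adjusted p = 1.07e-12 and 2.15e-12, edgeR), higher at 6 h (1.14, adjusted p = 2.59e-08) and not called at 0 and 8 h. Members called higher and lower under the KO label were 4 and 2 at 2 h (33.8% and 35.3% of all genes), 4 and 2 at 4 h (31.9% and 38.3%), 4 and 2 at 6 h (37.4% and 34.9%) and 3 and 1 at 8 h (34.9% and 31.4%). The NRAS call was higher at 2 h (0.18, adjusted p = 0.00446; not called on the molecule scale, 0.09, adjusted p = 0.412) and lower at 6 h (-0.28, adjusted p = 3.05e-05), and on the ribosomal and molecule scales the 6 h value was 0.71 and 0.75, or -0.34 and -0.19 relative to the median of all genes. CCND2 was called higher at 4 h, on 8 and 16 counts under KO against 0 and 0 under NC.

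The change from 0 h also differed between the labels, as a contrast of the KO change minus the NC change. At 2 h the contrast was positive for NRAS and negative for CDK6 and CDC25A, 1 and 2 of 6 members (15.1% and 15.3% of all genes). At 4 h it was negative for HMGA2, CDK6 and CDC25A and positive for 0 of 6 (16.3% and 10.7%). At 6 h it was positive for CDK6 and CDC25A and negative for HMGA2 and NRAS (11.7% and 20.4%). At 8 h it was positive for HMGA2 and negative for CDK6 (2.86% and 3.74%). The libraries labelled NC at 4 h and KO at 6 h, which stood apart, enter the contrasts at those times. With ribosomal scaling the NRAS difference between the labels was higher at 6 h than at 0 h, so its sign at 6 h did not hold there. The median of all genes rose more on that scale, from 0.50 at 0 h to 1.045 at 6 h. On the molecule scale the NRAS difference was lower at 6 h (0.75) than at 0 h (0.88).

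Within a label, levels relative to the library total did not fall steadily over the labelled hours in actinomycin D. A fall shared by all genes would not show on this scale. CDC25A had 9.35 and 10.7 CPM in the libraries labelled KO at 0 h, 4.24 and 7.69 at 2 h, 21.4 and 23.3 at 4 h, 27.5 and 26.7 at 6 h, and 7.13 and 6.67 at 8 h. Under the NC label it had 6.86 and 9.11 CPM at 0 h, 22.6 and 21.0 at 2 h, 65.8 and 68.4 at 4 h, 12.9 and 11.7 at 6 h, and 6.94 and 7.48 at 8 h. Its highest time was thus 6 h under KO and 4 h under NC, and the highest mean was 4.55 and 9.30 times the lowest. The level at 4 h under NC stood at a log2 change of 3.07 from 0 h (adjusted p = 3.1e-19), and at 6 h under KO at 1.44 (adjusted p = 6.54e-10, edgeR).

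CDK6 had the same highest times. Under KO it had 94.1 and 93.3 CPM at 0 h, 73.9 and 75.4 at 2 h, 135 and 146 at 4 h, 160 and 155 at 6 h, and 76.4 and 71.2 at 8 h. Under NC it had 371 and 351 CPM at 0 h, 471 and 448 at 2 h, 650 and 694 at 4 h, 425 and 438 at 6 h, and 341 and 324 at 8 h. The changes from 0 h were 0.75 at 6 h under KO (adjusted p = 4e-16) and 0.90 at 4 h under NC (adjusted p = 6.18e-20, edgeR). KO at 6 h and NC at 4 h, the libraries that stood apart in their share of reads in genes, were also the highest times for 22.6% of all tested genes, so this timing is shared widely. The part of that share in the members' timing was not tested.

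**Figure D4:**
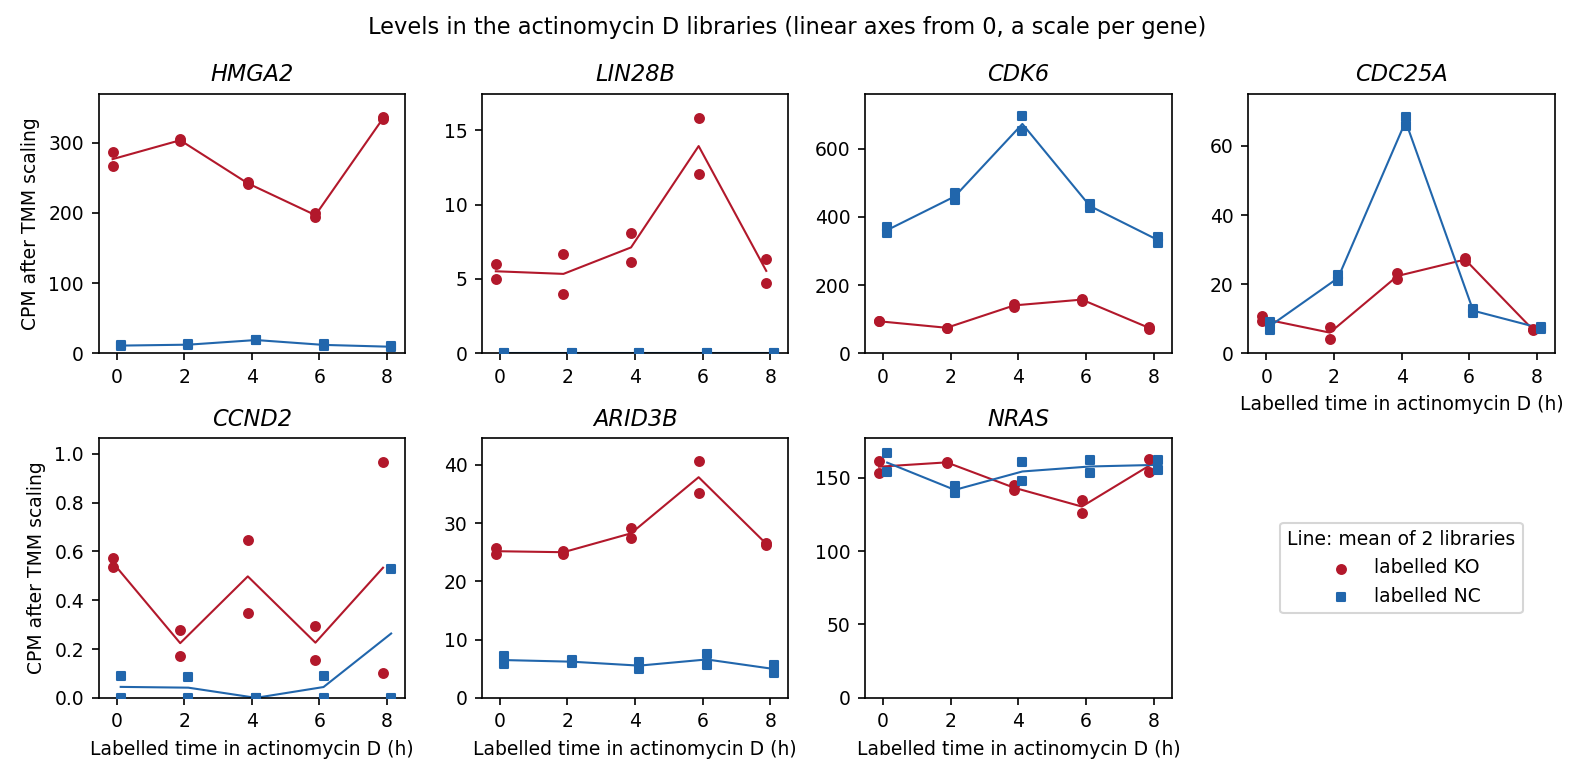
Level of each target in CPM after TMM scaling (linear axes from 0, a scale per gene) against labelled time in actinomycin D, with 1 point per library and lines through the means of 2 libraries, labelled KO and NC. CDC25A and CDK6 are highest at 6 h under KO and 4 h under NC, HMGA2, LIN28B and ARID3B lie higher under KO at every time, and NRAS stays between 126 and 167 CPM.

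LIN28B and ARID3B were also highest at 6 h under KO. LIN28B had 5.01 and 6.02 CPM at 0 h, 6.68 and 4.00 at 2 h, 6.16 and 8.07 at 4 h, 12.02 and 15.8 at 6 h, and 6.33 and 4.75 at 8 h, and its 6 h value was called above 0 h (log2 change 1.34, adjusted p = 0.000253, edgeR), a call lost on the molecule scale (adjusted p = 0.0932, limma). ARID3B was at 35.1 and 40.6 CPM at 6 h under KO, a log2 change of 0.59 from 0 h (adjusted p = 0.000753, edgeR) that was likewise lost on the molecule scale (adjusted p = 0.587, limma), and did not pass the F test over the 5 times under NC (adjusted p = 0.217). HMGA2 had its lowest level at that time. Under KO it had 266 and 287 CPM at 0 h, 305 and 302 at 2 h, 240 and 244 at 4 h, 200 and 194 at 6 h, and 333 and 336 at 8 h. The changes from 0 h were -0.49 at 6 h (adjusted p = 1.68e-09) and 0.28 at 8 h (adjusted p = 0.000301, edgeR). Scaled to the ribosomal protein genes, the 6 h value of HMGA2 was 0.16, and on the molecule scale its 8 h value was -1.67, so neither sign held under every scale. The medians of all genes were then 0.53 and -1.78. Relative to them HMGA2 still lay lower at 6 h and higher at 8 h. Under NC, HMGA2 was highest at 4 h, at 18.3 and 19.3 CPM, a log2 change of 0.79 from 0 h (adjusted p = 1.73e-09, edgeR).

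Counting members by time, 0 rose and 2 fell from 0 h to 2 h under KO (4.87% and 4.29% of all genes), 2 and 1 at 4 h (12% and 15.7%), 4 and 2 at 6 h (19.7% and 28%), and 1 and 2 at 8 h (11.3% and 10.7%). Under NC, where LIN28B at 0 counts could not be tested, 2 and 1 of 6 rose and fell at 2 h (16.9% and 14.9%), 3 and 0 at 4 h (27.1% and 24.4%), 2 and 0 at 6 h (3.12% and 1.3%), and 0 and 0 at 8 h (1.61% and 1.59%). These counts are edgeR calls. At 8 h under NC, CDK6, HMGA2 and ARID3B had an unadjusted p under 0.05 (0.0144, 0.0367 and 0.0397). None was called, with adjusted p of 0.178, 0.291 and 0.301 (edgeR). The share of all genes at that unadjusted cut-off is not given here. By the F test over the 5 times, 6 of 7 members differed under KO (55.9% of all genes), CCND2 being the exception, and 4 of 6 under NC (54.7%), namely HMGA2, CDK6, CDC25A and NRAS.

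The design text names mRNA lifetime as a question, and slopes over labelled hours address it relative to the library total, not as absolute decay rates. No member and no gene had a slope that passed the edgeR test under KO, under NC or for their difference. Of all tested genes 0% were called in each, 3.58%, 2.28% and 2.99% had an unadjusted p under 0.05, and DESeq2 called 5 genes higher and 5 lower under KO, 0 and 2 under NC, and 3 and 3 for the difference. None of the members had an unadjusted p under 0.05 in any of them. A straight line counts the departures at KO 6 h and NC 4 h as spread, which limits what the slope test can call. It therefore cannot show that lifetimes were alike. Slopes in log2 per hour under KO were 0.002 for HMGA2 (SE 0.03), 0.10 for LIN28B (SE 0.07), 0.03 for CDK6 (SE 0.05), 0.10 for CDC25A (SE 0.14) and -0.01 for NRAS (SE 0.01). Under NC they were -0.02 for HMGA2 (SE 0.04), -0.02 for CDK6 (SE 0.05), -0.08 for CDC25A (SE 0.19) and 0.01 for NRAS (SE 0.01). The slopes of ARID3B were 0.04 under KO (SE 0.03) and -0.03 under NC (SE 0.03). Those of CCND2 were -0.01 under KO (SE 0.14) and 0.34 under NC (SE 0.19), where it had 0 to 10 counts a library. ARID3B had the slope difference closest to the threshold, 0.07 (SE 0.04, unadjusted p = 0.0735, adjusted p = 1, edgeR). Without NC 4 h and KO 6 h the slopes of CDK6 and CDC25A under KO were -0.02 and -0.01. With the authors' log2 molecule values, for which all genes had a median slope of -0.17 under KO and -0.15 under NC, 2 of 7 members were called lower under KO (HMGA2 -0.18, NRAS -0.19), where 51.7% of all genes were, and 2 of 6 under NC (ARID3B -0.16, NRAS -0.16, limma), where 45.1% of all genes were.

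Over the 20 actinomycin D libraries, with log2 CPM centred within each label, CDK6 and CDC25A were the most alike pair of members (Pearson r = 0.94). LIN28B, at 0 in every library labelled NC, varied only over the 10 labelled KO, and its value below rests on those. These are descriptions, since the libraries share depth, timing and label effects. The gene most like each member by the same measure, among tested genes averaging at least 10 CPM, was GXYLT1 for HMGA2 (r = 0.95), ZNF518B for LIN28B (0.94), PANK3 for CDK6 (0.98), NUP62 for CDC25A (0.99), CLEC16A for CCND2 (0.68), FBXL20 for ARID3B (0.79) and EARS2 for NRAS (0.92).

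In a wider list of 27 other let-7 targets, 10 of the 26 that could be tested rose in KO at steady state and 8 fell (24.4% and 26.3% of all genes), with a median log2 change of 0.14, and TRIM71 was not tested. Steady-state values of this and the later lists carry no adjustment for transcript length. The largest rises were those of NR6A1, an orphan nuclear receptor (0.89, adjusted p = 0.000119), ARID3A (0.69, adjusted p = 0.00019), HMGA1 (0.64, adjusted p = 0.000132) and CDC34, a ubiquitin-conjugating enzyme (0.58, adjusted p = 0.000425, edgeR). NR6A1 averaged 12.9 ± 0.717 CPM in KO, against 6.94 ± 0.510 CPM in NC (SD, n = 3 libraries). The largest falls were those of TGFBR1, a TGF-beta receptor kinase (-2.28, adjusted p = 1.33e-06), DICER1, which makes mature microRNAs (-1.48, adjusted p = 3.61e-05), MAPK6, an atypical MAP kinase (-1.42, adjusted p = 3.49e-05), and GNPTAB, a subunit of the enzyme that tags lysosomal proteins (-1.14, adjusted p = 0.000196, edgeR). TGFBR1 averaged 14.9 ± 0.928 CPM in KO, against 72.1 ± 2.40 CPM in NC, and MAPK6 averaged 101 ± 17.8 CPM in KO, against 271 ± 5.93 CPM in NC (SD, n = 3 libraries).

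At 0 h of the actinomycin D set, 16 of the 26 were higher and 5 were lower under the KO label (35.5% and 31.6% of all genes), with a median of 0.56. IGF2BP2, an RNA-binding protein, was at a log2 change of 2.998 (adjusted p = 2.51e-31), MAPK6 at 1.94 (adjusted p = 1.82e-26) and ARID3A at 1.86 (adjusted p = 2.83e-12, edgeR). LIN28A had 20 and 26 counts under KO and 0 and 0 under NC. MYC, a transcription factor, was at -1.79 (adjusted p = 2.08e-16), IGF1R, a growth factor receptor, at -1.53 (adjusted p = 8.48e-28), TGFBR1 at -1.40 (adjusted p = 2.68e-22) and E2F2, a cell-cycle transcription factor, at -1.10 (adjusted p = 3.94e-06, edgeR). NR6A1, ARID3A, HMGA1, CDC34, HRAS, CCND1 and HIC2 were higher in KO at steady state and under the KO label at 0 h. TGFBR1 and IGF1R were lower in both comparisons. The share of all genes called the same way in both is not given here. MAPK6, DICER1, IGF2BP3 and BACH1 were lower in KO at steady state and higher under the KO label at 0 h, and MYC and THBS1 were the other way round (BACH1, THBS1 and HIC2 are named here after their values were seen); whether the sets differ for these genes was not tested.

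**Figure D5:**
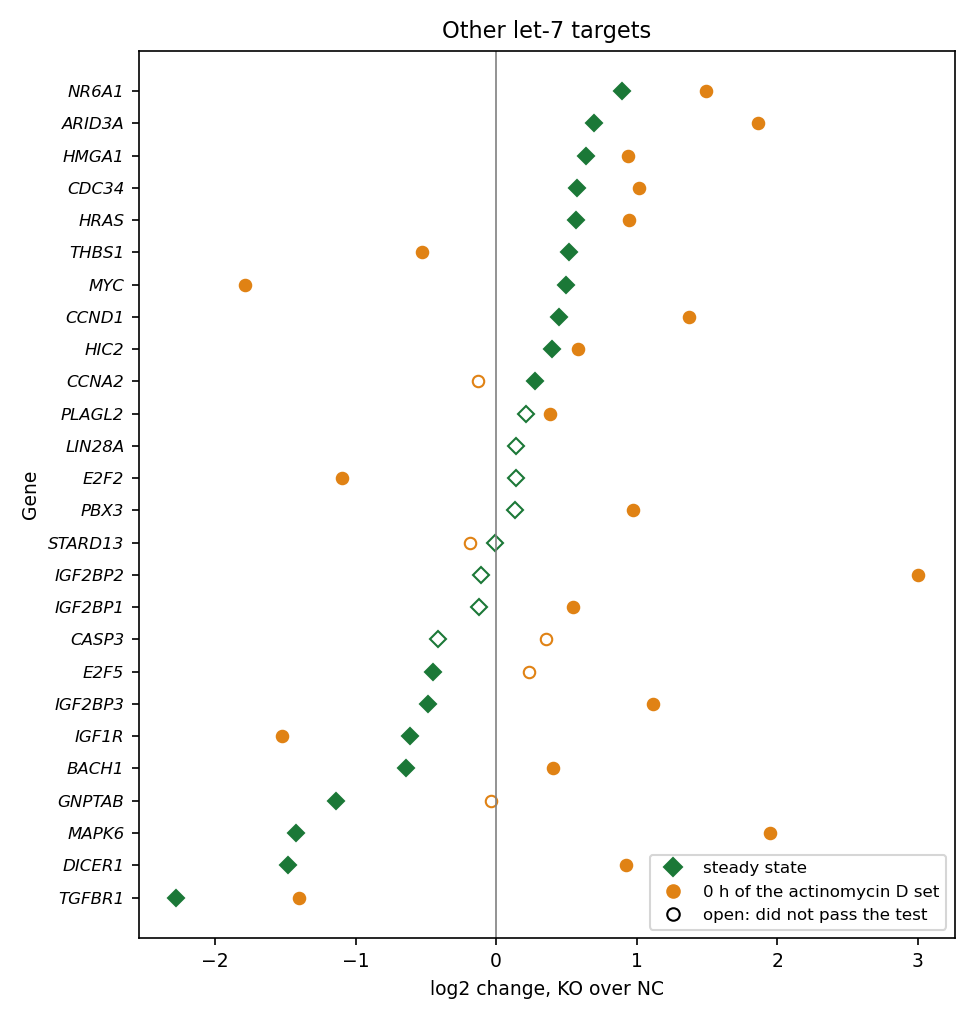
Log2 change, KO over NC, of the other let-7 targets at steady state (diamonds) and at 0 h of the actinomycin D set (circles), ordered by the steady-state value; open symbols did not pass the test, and LIN28A, at 0 counts under NC, has no circle. TGFBR1 is lower in KO at steady state and under the KO label at 0 h. MAPK6 and DICER1 lie lower in KO at steady state and higher under the KO label at 0 h.

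Paralogs of the members were mostly higher in KO at steady state: 8 of 9 higher and 0 lower (24.4% and 26.3% of all genes), with LIN28A not passing. CDC25C (0.94), CCND3 (0.77), ARID3A (0.69), HMGA1 (0.64), CDC25B (0.59), HRAS (0.57), CCND1 (0.45) and CDK4 (0.36) rose with adjusted p from 2.65e-05 to 0.00405 (edgeR). HMGA1 thus rose where HMGA2 fell, and CDK4 rose where CDK6 fell. HMGA1 averaged 895 ± 63.6 CPM in KO, against 576 ± 26.1 CPM in NC (SD, n = 3 libraries). At 0 h, 7 of 9 were higher under the KO label (35.5% of all genes), and CCND3 (-1.75) and CDK4 (-0.71) were lower (31.6% of all genes).

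Of 21 factors that process, use or turn over let-7, 4 rose and 10 fell at steady state in KO (24.4% and 26.3% of all genes), with a median log2 change of -0.14. These calls are not adjusted for transcript length, and among all genes the longest group had 46.8% called lower. In deposited TPM, 2 of those called lower were not lower in KO: AGO3 averaged 8.92 TPM in KO, against 6.43 TPM in NC, and TNRC6B averaged 2.44 TPM in KO, against 1.49 TPM in NC (both named after their values were seen). The targeted KHSRP is 1 of the 10 and LIN28B another. Besides these and DICER1, TUT7 (-1.11, adjusted p = 0.000326), a terminal uridylyltransferase that modifies let-7 precursors, was among the largest falls. XPO5 (0.38, adjusted p = 0.00204), which exports precursors from the nucleus, TARBP2 (0.35, adjusted p = 0.00589), a partner of DICER1, RAN (0.29, adjusted p = 0.00298) and AGO2 (0.20, adjusted p = 0.0479, edgeR), an Argonaute protein, rose. At 0 h, 9 were higher and 8 were lower under the KO label (35.5% and 31.6% of all genes). Besides LIN28B and LIN28A, the largest positive changes were those of AGO4, an Argonaute protein (1.54, adjusted p = 2.7e-10), and TUT4, a terminal uridylyltransferase (1.11, adjusted p = 3.32e-12, edgeR), which was at -0.80 at steady state. Besides KHSRP, the largest negative changes were those of DROSHA (-1.10, adjusted p = 1.05e-19), HNRNPA1, which binds let-7 precursors (-1.07, adjusted p = 8.3e-28), and RAN (-0.72, adjusted p = 1.25e-22, edgeR).

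Host transcripts of let-7 hairpins were lower in KO at steady state in 4 of the 6 tested, with 0 higher (26.3% and 24.4% of all genes) and a median of -0.51. MIRLET7IHG was at -0.93 (adjusted p = 0.00262), MIRLET7A1HG at -0.81 (adjusted p = 0.00425), MIR100HG at -0.61 (adjusted p = 0.00481) and MIRLET7BHG at -0.42 (adjusted p = 0.00755, edgeR), while HUWE1 and WDR82 did not pass. In deposited TPM MIRLET7BHG did not differ beyond its spread, at 5.97 ± 0.379 TPM in KO and 5.82 ± 0.589 TPM in NC (SD, n = 3 libraries). Nor did MIR100HG, at 6.36 ± 1.80 TPM in KO and 7.26 ± 0.505 TPM in NC (SD, n = 3 libraries). MIRLET7IHG averaged 2.84 ± 0.524 CPM in KO, against 5.37 ± 1.09 CPM in NC (SD, n = 3 libraries). At 0 h, where MIR99AHG was tested in place of MIRLET7IHG, 5 of 6 were higher under the KO label and 1 lower (35.5% and 31.6% of all genes), on few counts for MIRLET7A1HG (6 and 14 under KO, 0 and 0 under NC) and MIR99AHG (0 and 0 under KO, 11 and 14 under NC). The counts higher and lower of 6 were 2 and 2 at 2 h (33.8% and 35.3% of all genes). They were 2 and 4 at 4 h (31.9% and 38.3%), 4 and 1 at 6 h (37.4% and 34.9%), and 3 and 1 at 8 h (34.9% and 31.4%).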

How the data were processed

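Messenger RNA was sequenced in 6 steady-state and 20 actinomycin D libraries. TRIzol extraction and a Hieff NGS mRNA library kit are stated per the labels' protocols. The submitters' processing notes list STAR, RSEM, Bowtie2, deepTools and hg19 with no version or role; whether counting used strand is not given. The deposited steady-state tables hold expected counts, TPM and FPKM, and the deposited actinomycin D tables hold counts, RPM, RPKM and log2 molecule values, per the file headers. Expected counts (10.2% not whole) were rounded, and FPKM was not used. Differences were tested by edgeR 4.0.16 under R 4.3.3 (filterByExpr, TMM, robust quasi-likelihood F test), adjusted by Benjamini-Hochberg over all tested genes at 0.05. The actinomycin D fits used all 20 libraries. An SE is the absolute log2 change over the square root of F, and CPM values use TMM-scaled library sizes. Alternatives were DESeq2 1.42.0 and its size factors, no low-count filter, offsets adjusted for transcript length, scaling to 79 ribosomal protein genes, limma 3.58.1 on the deposited log2 molecule values with zeros dropped from the fit, a replicate block and leaving out libraries. The scripts were tested on simulated data. In the actinomycin D set, same-numbered libraries did not deviate together (r of -0.0597 to 0.0716). At steady state r was 0.157 for replicate 1, 0.131 for replicate 2 and -0.201 for replicate 3, against a threshold of 0.1. Numbers were not treated as pairs in the main fits. No pair of libraries of a group agreed within sampling noise (chi-square per degree of freedom of at least 3.81). All 7 members entered every comparison, except LIN28B in those that need a change under NC, where it was at 0 counts. Not every member is named in every comparison. Up to 4 called genes in each direction were named from each list, with any paralog. The members, lists and rules were chosen with earlier results of these data known. The change from 0 h compared between labels was added after the data were seen. A gene was left out of the lists and is not reported here.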

Additional observations from a re-analysis of the deposited data

Results flagged for a closer look

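HMGA2 and LIN28B lay lower in every KO library than in any NC library at steady state and higher in every library labelled KO than in any labelled NC in the actinomycin D set. The log2 change of HMGA2 was -1.14 at steady state and 4.66 at 0 h. For LIN28B it was -1.23 at steady state, and at least 5.32 at 0 h against the floor of 3 counts. The difference between the sets was not tested.

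The change from 0 h differed between the labels (edgeR, contrast of the KO change minus the NC change, adjusted p under 0.05) in 12 cases, which were looked for after the data were seen. Of all genes, 15.1% were called positive and 15.3% negative at 2 h, and 10.7% and 16.3% at 4 h. The shares were 11.7% and 20.4% at 6 h, and 2.86% and 3.74% at 8 h. CDC25A differed by -2.19 at 2 h, -1.91 at 4 h and 0.812 at 6 h. CDK6 differed by -0.676 at 2 h, -0.314 at 4 h, 0.489 at 6 h and -0.226 at 8 h. HMGA2 differed by -0.979 at 4 h, -0.612 at 6 h and 0.507 at 8 h. NRAS differed by 0.204 at 2 h and -0.25 at 6 h, where the median of all genes was -0.13. With ribosomal scaling the NRAS difference between the labels was higher at 6 h than at 0 h, so that sign did not hold there. The median of all genes rose more on that scale, from 0.50 at 0 h to 1.045 at 6 h. On the molecule scale the NRAS difference was lower at 6 h than at 0 h. The contrasts at 4 h and 6 h use the libraries labelled NC at 4 h and KO at 6 h, which stood apart. The part of this in the contrasts was not tested. LIN28B, at 0 counts under NC, could not be tested.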

How the results depend on the processing

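The counts of members called at steady state and at 0 h stayed within 1.5 times under every alternative run (2 higher and 3 to 4 lower at steady state, 3 to 6 higher and 1 lower at 0 h). Directions and calls of HMGA2, LIN28B, CDK6, CDC25A and ARID3B at steady state held under all 12 alternatives. Of all genes, 2565 were called higher at steady state with ribosomal scaling, against 4198, and 3524 and 1833 lower at 0 h with ribosomal scaling and on the molecule scale, against 5600. On the molecule scale the members called lower by slope were 2 under KO and 2 under NC, against 0 and 0 by edgeR, and 8980 and 7756 of all genes were called lower there.

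Values that changed sign follow. With length-adjusted offsets CCND2 was at 0.163 at steady state. With ribosomal scaling NRAS was at 0.42 at 0 h and 0.709 at 6 h between labels, at 0.376 for KO 6 h and 0.146 for NC 2 h against 0 h, and had slopes of 0.00667 under KO, -0.0179 under NC and 0.0246 for the difference, and HMGA2 was at 0.163 and 0.159 for KO 4 h and 6 h against 0 h. On the molecule scale NRAS was at 0.883 at 0 h and 0.75 at 6 h between labels and 0.049 for NC 2 h against 0 h, HMGA2 was at -1.67 for KO 8 h and CDK6 at -0.308 for NC 6 h against 0 h. Slopes on that scale under KO were -0.184 for HMGA2, -0.0686 for LIN28B, -0.141 for CDK6, -0.0879 for CDC25A and -0.122 for ARID3B, with -0.161 for NRAS under NC and -0.0301 for the HMGA2 difference. Without NC 4 h and KO 6 h, slopes under KO were -0.0181 for CDK6, -0.00643 for CDC25A and 0.0301 for CCND2, and the CDK6 difference was -0.00585. Both scales also moved the median of all genes. With ribosomal scaling it was 0.50 at 0 h and 1.045 at 6 h between labels. Against 0 h it was 0.29 for KO 4 h, 0.53 for KO 6 h and 0.33 for NC 2 h. On the molecule scale it was 0.885 at 0 h and 0.94 at 6 h between labels. There it was -1.78 for KO 8 h, 0.13 for NC 2 h and -0.50 for NC 6 h against 0 h. Its slopes on that scale were -0.17 under KO and -0.15 under NC. The cause of the sign changes was not tested.

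Leaving out 1 library at a time gave -0.516 to 0.0693 for CCND2 at steady state and -0.0807 to 0.0303 for NRAS at 0 h. Slopes under KO were -0.0212 to 0.0131 for HMGA2 and -0.195 to 0.0466 for CCND2, and under NC -0.0555 to 0.00496 for HMGA2, -0.0483 to 0.0139 for CDK6, -0.241 to 0.064 for CDC25A and -0.166 to 0.562 for CCND2. Slope differences were -0.00297 to 0.0575 for HMGA2 and -0.57 to 0.158 for CCND2. The replicate block left the same number of members called, 2 higher and 4 lower at steady state and 4 and 1 at 0 h. CCND2, at 0 to 23 counts a library, limits what depth can show.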
